A study of Mus musculus with 9 samples.

Results

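Cortex RNA of B6, C3H and WSB mice was examined here for 33 genes that mark microglia, the resident macrophages of the brain. The genes were chosen by name, in a list that covers surface receptors of resting microglia, the complement C1q chains, the Trem2, Fc receptor and Tyrobp signalling genes, lysosomal genes, leukocyte genes, transcription factors and a secreted protein. All 33 were found by symbol among the 54532 genes of the table, and all 33 passed the filter for testing in each of the 3 comparisons. B6 (C57BL6/J) and C3H (C3H/HeJ) are classical inbred strains, and WSB (WSB/EiJ) is a wild-derived inbred strain. Each strain was represented by 3 male mice of 8 to 12 weeks, which carried no engineered allele in the labels and received no treatment. Bulk RNA was read from brain cortex tissue, and the extent of the dissection is not given in the sources used here. The study used the strains to look for genes that could change the size of an ischemic stroke. The question asked here is whether the microglia genes differ between strains as a group or gene by gene.

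Microglia enter the brain from the yolk sac early in development and renew themselves there. They depend on the receptor Csf1r and its ligands Csf1 and Il34, read neuronal signals through Cx3cr1 and P2ry12, and clear synapses, lipids and dying cells with the help of C1q, Trem2 and Mertk. Their identity is set by factors such as PU.1 (the product of Spi1), Irf8 and Sall1. In bulk cortex these genes come from a small cell population, and fewer microglia and less RNA per microglial cell cannot be told apart.

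The values are FPKM, which count fragments on a gene per kilobase of its length after scaling each library, so that levels can be compared between genes. The libraries held 16317439 to 17784118 reads on genes in the WSB mice, 19042306 to 19433751 in the C3H mice and 17651630 to 21562429 in the B6 mice. Between strains, log2 fold changes leaned on the GC content of transcripts across 12995 genes, with Spearman coefficients of 0.48 for C3H against B6, 0.11 for WSB against B6 and -0.40 for WSB against C3H. C3H replicate 2 was the library whose removal moved the counts of called genes most, to 2301 genes between C3H and B6 from 956. All 33 microglia genes had a value above 0 in each of the 9 mice, the defining markers Cx3cr1, P2ry12 and Tmem119 among them. Each fold change is a difference in log2(FPKM + 0.1), which understates the change of weak genes, with its standard error (SE) and its p-value from limma, adjusted by the method of Benjamini and Hochberg over all genes tested. A gene is called when this adjusted p is under 0.05. A value after ± is the SD of the 3 mice of a strain.

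The microglia genes spanned a wide range of levels. In B6, strain means ran from 0.192 FPKM for Ptprc to 62.0 for C1qa, with a median of 5.75, and 12 of the 33 genes reached 10 FPKM. The median of the strain means was 5.21 FPKM in C3H and 4.68 in WSB, where 11 and 8 genes reached that level. The 33 genes summed to 405 to 435 FPKM in the B6 mice, 357 to 401 in the C3H mice and 310 to 322 in the WSB mice, so that the sums of the 3 strains did not overlap.

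Most microglia genes were lower in WSB than in B6. Of the 33 genes, 27 had a log2 fold change below 0, with a median of -0.42 against 0.002 over all 20746 genes tested. By limma, 11 genes (33.3%) were lower in WSB, against 5.90% of all genes tested called in either direction, 3.09% called lower and 2.81% called higher. None of the 33 was called higher, and at an unadjusted p under 0.05 the counts were 19 lower and 2 higher, where 20.4% of all genes tested passed in either direction. In 23 genes (69.7%) the WSB and B6 values did not overlap, against 26.0% of all genes. In 21 of them (63.6%) all 3 WSB values lay below all 3 B6 values, against 13.1% of all genes, and in Aif1 and Olfml3 they lay above.

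The difference between C3H and B6 was smaller and mixed in sign. The median of the 33 genes was -0.15, against -0.004 over all 20602 genes tested, and 23 genes lay below 0. Only Aif1 was called higher in C3H, and C1qb, C1qc, Fcrls, Olfml3 and Fcgr3 were called lower. These 6 genes are 18.2% of the list, against 4.64% of all genes tested, of which 2.38% were called higher and 2.26% lower. In 14 genes (42.4%) the values did not overlap, against 28.9% of all genes. C3H was the lower strain in 11 of them (33.3%), against 14.0% of all genes, and the higher in P2ry13, Tmem119 and Aif1.

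WSB was also lower than C3H when the 2 strains were compared directly. The median was -0.31, against 0.009 over all 20607 genes tested, and 25 of the 33 genes lay below 0. C1qa, C1qc, Trem2, Tyrobp, Fcrls, Laptm5 and Slco2b1 were called lower in WSB and Olfml3 higher, 24.2% of the list against 5.74% of all genes tested (2.61% higher and 3.13% lower). Values did not overlap in 20 genes (60.6%), against 28.6% of all genes. WSB was the lower strain in 18 of them (54.5%), against 14.4% of all genes, and the higher in Cd14 and Olfml3. The comparisons share their mice in pairs, so they are not independent of each other.

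A shared shift was visible in each WSB mouse. For every mouse, the median over the 33 genes of the deviation from each gene's mean of 9 mice was 0.28, 0.06 and 0.12 in B6 replicates 1, 2 and 3, and 0.10, 0.0007 and 0.13 in C3H. It was -0.21, -0.22 and -0.18 in WSB, below all 6 other mice, while the medians of B6 and C3H overlapped. In the WSB mice 8, 5 and 9 of the 33 genes exceeded their own mean, compared with 29, 22 and 24 in B6 and 20, 17 and 21 in C3H.

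**Figure D1:**
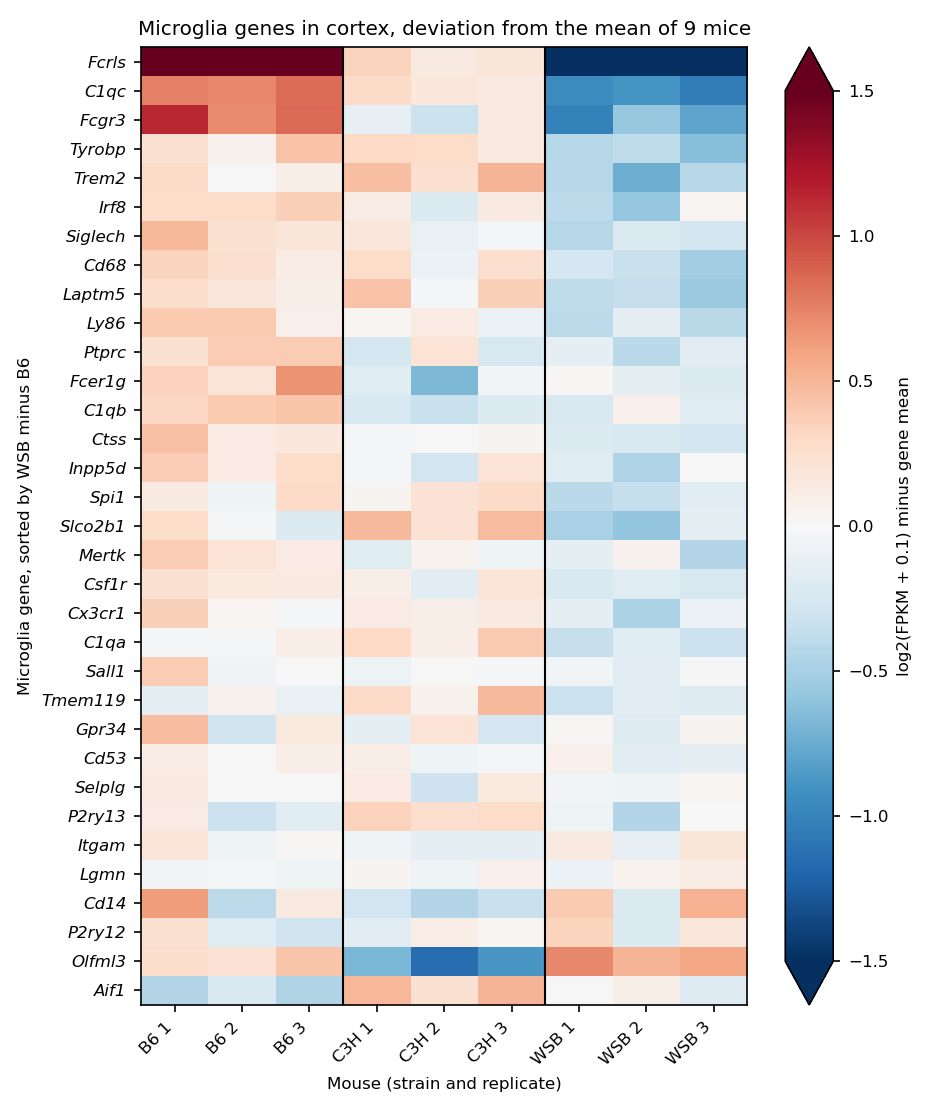
Each of the 33 microglia genes (vertical axis, sorted by the fold change between WSB and B6) in each of the 9 mice (horizontal axis), with color for log2(FPKM + 0.1) minus the gene's mean of 9 mice (values past 1.5 in size take the end color). The 3 WSB columns are mostly blue, while Fcrls, C1qc and Fcgr3 show strong bands of color by strain. Olfml3 and Aif1 run against most other genes between WSB and B6.

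A second list of 54 genes expressed by microglia, none of them among the 33, was read in the same way. Like the 33, it was chosen with earlier results of these data known and comes from the same mice, so it is not independent support. Between WSB and B6, 47 of its 51 tested genes lay below 0 with a median of -0.51. Of these, 5 were called (9.80%, against 5.90% of all genes tested), all lower in WSB, namely Hpgd, Unc93b1, Adgre1, Cyth4 and Vsir. Adgre1, which encodes the macrophage antigen F4/80, had 2.24, 1.65 and 1.67 FPKM in B6, 1.53, 2.104 and 2.15 in C3H, and 0.799, 0.910 and 1.12 in WSB. Unc93b1, the chaperone that carries nucleic acid sensing Toll-like receptors to endosomes, fell from 5.86, 5.54 and 6.05 FPKM in B6 to 2.98, 2.93 and 2.85 in WSB, with 5.71, 5.38 and 6.26 in C3H. For both genes each WSB mouse lay below all B6 and C3H mice. Between C3H and B6, 37 of 52 tested genes of this list lay below 0, with a median of -0.14. Only 1 gene, Hpgd, was called, as lower in C3H (1.92%, against 4.64% of all genes tested). Between WSB and C3H the median was -0.26 and 6 genes, led by Bin2, Unc93b1 and Adgre1, were called lower (11.5%, against 5.74% of all genes tested).

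Genes of other cells in the cortex were set beside these values. Between WSB and B6, neuronal genes had a median of -0.05 and astrocyte genes a median of 0.06, and limma called none of the 15 genes in either list (3 and 4 at an unadjusted p under 0.05, against 20.4% of all genes tested). Oligodendrocyte genes moved with the microglia genes. All 15 lay below 0 in WSB against B6, with a median of -0.65. Limma called 3 of the 15 lower in WSB, where 3.09% of all genes tested were called lower. In 11 of the 15 (73.3%) all WSB values lay below all B6 values, against 13.1% of all genes. The share of the 33 microglia genes by that measure was 63.6%. The oligodendrocyte genes summed to 1035 to 1287 FPKM in B6 mice, 959 to 1270 in C3H mice and 574 to 802 in WSB mice. Genes of border macrophages, the macrophages of the meninges and vessels, had a median of -0.29, with 10 of 13 tested below 0 and none called by limma (4 at an unadjusted p under 0.05, against the same 20.4%), and a sum of 10.3 to 12.4 FPKM in B6 mice, 9.81 to 12.95 in C3H mice and 7.86 to 9.24 in WSB mice. The endothelial and mural genes had a median of -0.06, with 13 of 17 tested below 0, and summed to 115 to 122 FPKM in B6 mice, 107 to 137 in C3H mice and 95.6 to 107 in WSB mice. Limma called 3 of them lower in WSB (17.6%, against 5.90% of all genes tested). They were the surface protein gene Ly6c1 (log2 fold change -6.76), the smooth muscle actin gene Acta2 (-1.01) and the transporter gene Slco1a4 (-0.60). The 10 choroid plexus genes summed to 66.2, 67.6 and 770 FPKM in the B6 mice, 93.4 to 664 in C3H mice and 472 to 611 in WSB mice, so that 1 B6 mouse stood far above the other two. Their median between WSB and B6 was 0.59, with 9 of 10 above 0 and none called by limma (1 at an unadjusted p under 0.05). Between WSB and C3H the median was -0.39 for border macrophage genes, with 13 of 14 tested below 0, beside -0.31 for the 33 microglia genes. It was -0.40 for oligodendrocyte genes (12 of 15 below 0) and -0.24 for endothelial and mural genes (12 of 17). Neuronal genes had a median of 0.05, astrocyte genes -0.01 and choroid plexus genes 0.41. The part of these cells in the microglia result was not tested.

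The 14 lymphocyte genes summed to 26.2 to 47.5 FPKM in B6 mice, 22.1 to 37.0 in C3H mice and 23.0 to 36.2 in WSB mice, with 2 of them, Cd3d and Cd3g, at 0 in all 9 mice. Most of the sum came from the antigen receptor genes Ighm and Trbc2. Limma called Ighm, the heavy chain of IgM, lower in C3H than in B6 (log2 fold change -1.86) and higher in WSB than in C3H (1.24). The 15 monocyte and neutrophil genes summed to 3.55 to 4.11 FPKM in B6 mice, 4.04 to 6.72 in C3H mice and 2.98 to 5.03 in WSB mice, and limma called none of the 4 tested between WSB and B6 (2 at an unadjusted p under 0.05). Among single markers, the T cell gene Cd3e was above 0 in 1 of the 9 mice, at 0.0243 FPKM, the monocyte receptor Ccr2 stayed at or under 0.137 and the neutrophil gene S100a8 at or under 0.387. The 7 red cell genes summed to 217 to 254 FPKM in B6 mice, 633 to 1010 in C3H mice and 249 to 329 in WSB mice, highest in C3H and overlapping between WSB and B6. Of 5 tested, limma called 2 between WSB and B6 (40.0%, against 5.90% of all genes tested), Hbb-bt lower in WSB (-4.56) and Hba-a1 higher (0.91). It called 3 higher in C3H than in B6 (60.0%, against 4.64%) and 3 lower in WSB than in C3H (60.0%, against 5.74%). The part of these blood cell genes in the microglia result was not tested.

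**Figure D2:**
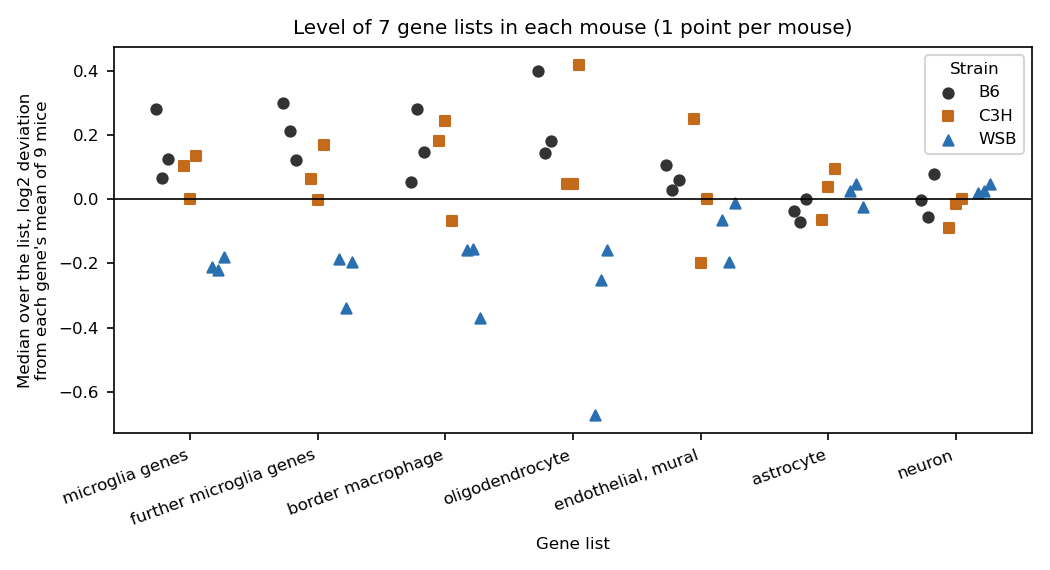
Median deviation (log2, vertical axis) of 7 gene lists (horizontal axis) in each of the 9 mice, 1 point per mouse, from each gene's mean of 9 mice. The 3 WSB points lie below the B6 and C3H points for the microglia lists, the border macrophage list and the oligodendrocyte list, and mix with them for astrocyte genes.

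To separate the shared shift from changes of single genes, each mouse was shifted so that its median over the 33 genes was 0. The centered difference then shows how far a gene moved from the rest of the list, as a description with no test. After centering, the WSB and B6 values overlapped in 17 of the 33 genes, while WSB was higher without overlap in 7 and lower in 9. Centering was done on this list only, so these counts have no share over all genes beside them. Between WSB and B6, 11 genes had a centered difference of 0.3 or more in size, 6 of 0.5 or more and 3 of 1 or more. Those 3 were Fcrls (-3.33), C1qc (-1.37) and Fcgr3 (-1.33), followed by Aif1 (0.70), Olfml3 (0.66) and P2ry12 (0.54). Before centering, Aif1, Olfml3 and P2ry12 differed by 0.34, 0.30 and 0.18 with no call, and the P2ry12 values of WSB and B6 overlapped. Their centered values thus show mainly that they did not fall with the list. Genes such as Csf1r (-0.02), Cx3cr1 (-0.004) and Mertk (-0.05) stood close to 0 and moved with the list. Between C3H and B6, 7 genes reached 0.5 and 2 reached 1, Fcrls (-1.45) and Olfml3 (-1.12). Between WSB and C3H, 6 reached 0.5, again with 2 past 1, Fcrls (-1.88) and Olfml3 (1.79).

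**Figure D3:**
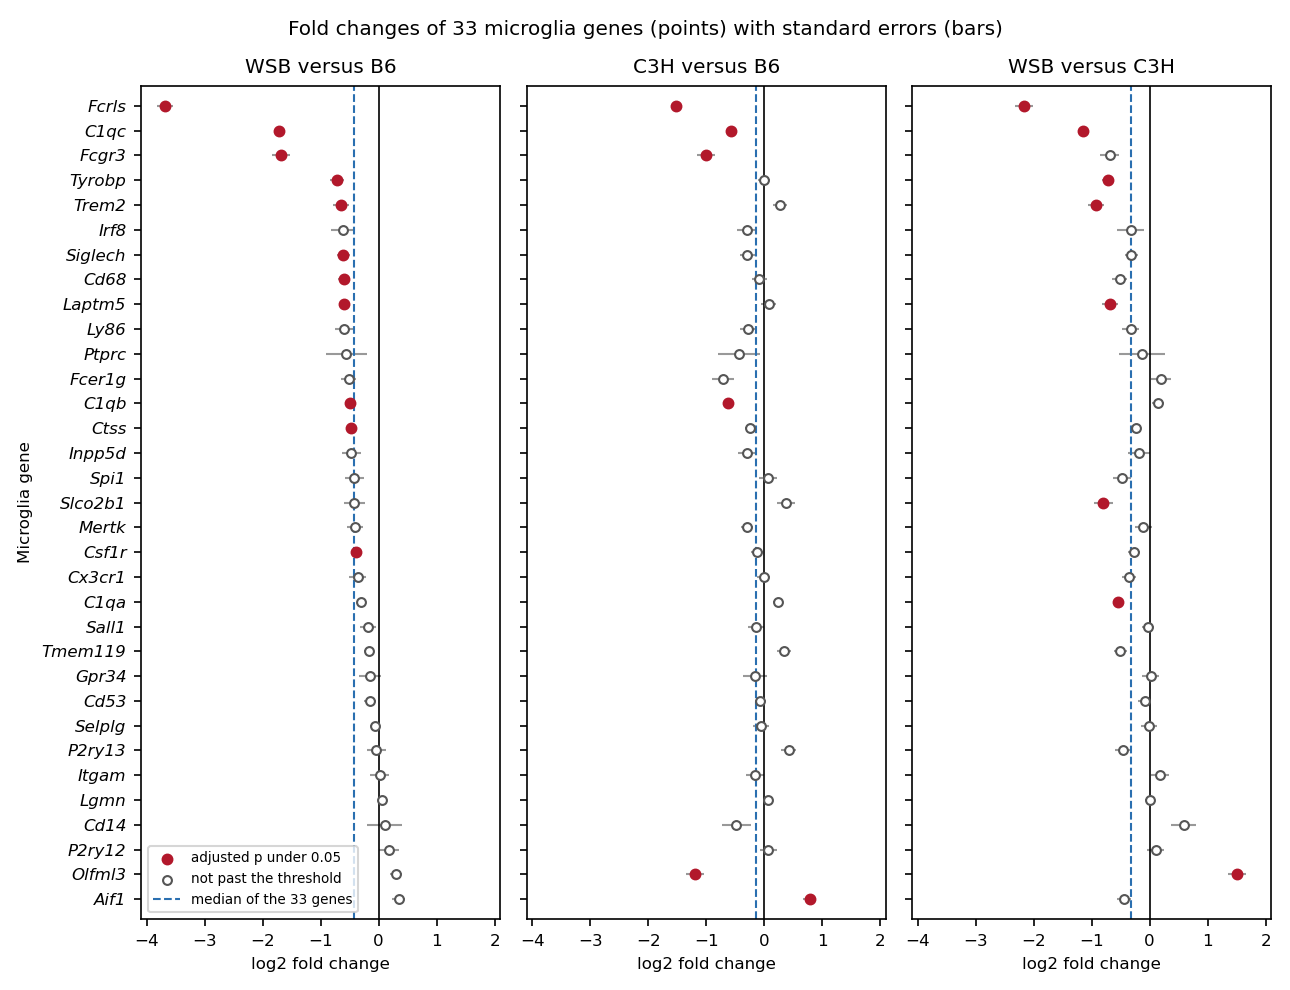
Log2 fold changes with standard errors (horizontal axis) of the 33 microglia genes (vertical axis) in the 3 comparisons, with filled points for genes called at an adjusted p under 0.05 and a dashed line at the median of the list. Most WSB points lie left of 0 around medians of -0.42 and -0.31, and Fcrls, C1qc, Fcgr3 and Olfml3 stand away from the line.

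The promoters of Fcrls, C1qc, Fcgr3 and Olfml3, the genes with a centered difference of 1 or more in size in any comparison, and of C1qb, whose level is set beside that of C1qc further on, are shown because PU.1, which binds the purine-rich core GGAA, is a main regulator of microglial genes. They are taken from RefSeq (GRCm38.p6), cover 250 bases before and 50 after the annotated start, and are written 5′ to 3′ along the gene's own strand. Capitals mark GAGGAAGT, a strong form of the PU.1 core, and each GGAA, on either strand (TTCC when read on the printed one). GAGGAAGT contains a GGAA, so the marks overlap. The stretches are chr3:87263475-87263774 (minus strand) for Fcrls, chr4:136892865-136893164 (minus strand) for C1qc, chr4:136886151-136886450 (minus strand) for C1qb, chr1:171059345-171059644 (minus strand) for Fcgr3, and chr3:103737952-103738251 (minus strand) for Olfml3.
Fcrls: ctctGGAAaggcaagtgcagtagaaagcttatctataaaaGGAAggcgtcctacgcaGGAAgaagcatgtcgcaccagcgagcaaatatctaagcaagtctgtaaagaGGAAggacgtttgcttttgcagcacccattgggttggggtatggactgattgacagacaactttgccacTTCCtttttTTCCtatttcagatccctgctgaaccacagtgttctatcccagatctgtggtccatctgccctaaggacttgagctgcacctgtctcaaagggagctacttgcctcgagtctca
C1qc: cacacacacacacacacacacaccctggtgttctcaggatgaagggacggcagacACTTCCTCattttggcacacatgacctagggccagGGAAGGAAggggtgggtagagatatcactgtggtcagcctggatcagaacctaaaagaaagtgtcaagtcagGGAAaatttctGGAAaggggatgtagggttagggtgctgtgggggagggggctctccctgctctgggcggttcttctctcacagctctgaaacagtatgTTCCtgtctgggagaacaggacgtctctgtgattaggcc
C1qb: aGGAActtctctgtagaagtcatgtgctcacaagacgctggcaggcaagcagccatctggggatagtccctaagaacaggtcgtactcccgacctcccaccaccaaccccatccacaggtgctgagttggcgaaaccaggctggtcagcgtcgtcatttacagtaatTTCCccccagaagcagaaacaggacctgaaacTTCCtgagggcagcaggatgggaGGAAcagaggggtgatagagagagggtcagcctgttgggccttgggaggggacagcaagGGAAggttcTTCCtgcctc
Fcgr3: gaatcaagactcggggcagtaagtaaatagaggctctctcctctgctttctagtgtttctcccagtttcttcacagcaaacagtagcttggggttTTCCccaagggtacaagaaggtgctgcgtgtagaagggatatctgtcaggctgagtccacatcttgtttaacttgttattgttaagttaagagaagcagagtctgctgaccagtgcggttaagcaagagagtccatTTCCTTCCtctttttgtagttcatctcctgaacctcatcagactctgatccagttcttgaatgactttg
Olfml3: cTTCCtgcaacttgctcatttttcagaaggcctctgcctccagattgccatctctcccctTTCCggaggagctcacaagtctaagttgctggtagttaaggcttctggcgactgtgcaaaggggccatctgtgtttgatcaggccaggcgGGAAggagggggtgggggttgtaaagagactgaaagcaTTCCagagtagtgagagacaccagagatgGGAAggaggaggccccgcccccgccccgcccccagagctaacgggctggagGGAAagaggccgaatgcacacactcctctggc
The reference table held promoters for 25 of the 33 genes, 33 promoters in all. GAGGAAGT, searched on both strands, was present in 5 of the 33 (15.2%), those of C1qc, Ctss, Cd53, Slco2b1 and Inpp5d, and in 3.20% of all 32851 promoters. The composite element of ETS and IRF factors, a GGAA and a GAAA with 2 bases of any kind between them, was searched on both strands and found in 1 (3.03%), that of Cd68, and in 2.72% of all promoters. GGAA alone was in 33 of 33 and in 96.0% of all promoters. These are matches of letters in the reference sequence, and the sequences of C3H and WSB were not read.

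Fcrls had the largest difference. It encodes a scavenger receptor related to Fc receptors that is used as a marker of mouse microglia, and lies on chromosome 3 from 87250758 to 87263738 (coordinates as in the table). Its level was 14.3, 14.5 and 15.9 FPKM in B6 replicates 1, 2 and 3, 5.55, 4.82 and 4.99 in C3H, and 1.29, 1.04 and 0.891 in WSB. The 3 strains formed separate levels with no overlap, on 597 to 789 reads in B6 mice, 218 to 241 in C3H mice and 38 to 50 in WSB mice. The B6 mean was 13.9 times that of WSB and 2.91 times that of C3H. In limma the log2 fold change was -3.69 (SE 0.14, adjusted p = 9.09e-06) for WSB against B6, -1.52 (SE 0.09, adjusted p = 9.87e-05) for C3H against B6 and -2.17 (SE 0.16, adjusted p = 0.000368) for WSB against C3H.

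The other receptors of resting microglia differed far less. Cx3cr1, the receptor for the neuronal chemokine Cx3cl1, had 12.8, 10.2 and 9.90 FPKM in B6, 10.9, 10.6 and 11.0 in C3H, and 8.97, 7.13 and 9.38 in WSB. Each WSB mouse was lower than each mouse of the other strains, but the log2 fold change of -0.36 (SE 0.14) against B6 was not called (limma, adjusted p = 0.202). Csf1r, the receptor on which microglial survival depends, was called lower in WSB, with 20.5, 19.2 and 19.0 FPKM in B6, 18.7, 15.5 and 20.1 in C3H and 14.9, 15.3 and 14.7 in WSB (log2 fold change -0.38, SE 0.06, adjusted p = 0.0154 by limma). Its exons share 873 bases with Hmgxb3 on the opposite strand, and the strand setting of the counting is not given in the sources used here.

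P2ry12, the ADP receptor that guides microglial processes, had overlapping values in all strains, at 12.5, 9.34 and 8.63 FPKM in B6, 9.52, 11.4 and 10.8 in C3H and 13.4, 9.12 and 12.0 in WSB. Its log2 fold change between WSB and B6 was 0.18 (SE 0.18), and no comparison called it. Tmem119, a membrane protein used to tell microglia from other macrophages, had 12.5, 14.4 and 12.7 FPKM in B6, 16.9, 14.4 and 19.4 in C3H, and 11.0, 12.3 and 12.1 in WSB. C3H mice were highest and WSB mice lowest without overlap, and the difference between them just missed the threshold (log2 fold change -0.50, SE 0.12, adjusted p = 0.0512 by limma).

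Siglech, a sialic acid binding receptor of mouse microglia, had 5.88, 4.86 and 4.69 FPKM in B6, 4.65, 3.83 and 4.04 in C3H and 3.06, 3.53 and 3.40 in WSB. The strains did not overlap, and WSB was called lower than B6 (log2 fold change -0.61, SE 0.12, adjusted p = 0.0293 by limma). Slco2b1, an organic anion transporter, had 3.07, 2.48 and 2.18 FPKM in B6, 3.59, 2.95 and 3.56 in C3H and 1.78, 1.64 and 2.30 in WSB. It was called lower in WSB than in C3H, by -0.80 (SE 0.16, adjusted p = 0.0331 by limma), while WSB and B6 overlapped. Its exons share 471 bases with Gm15635 on the opposite strand.

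The remaining receptors, P2ry13, Gpr34, Selplg and Mertk, were called in no comparison. P2ry13, a neighbor of P2ry12 on chromosome 3 with 5389 bases between them, had a B6 mean of 3.89 ± 0.64 FPKM (SD, n = 3), a C3H mean of 5.21 ± 0.19 and a WSB mean of 3.79 ± 0.62. Mertk, which takes up dying cells, averaged 8.75 ± 0.81 FPKM in B6, 7.09 ± 0.57 in C3H and 6.63 ± 1.16 in WSB. Gpr34, a lysophosphatidylserine receptor, ranged from 4.66 to 5.32 FPKM in its strain means, and Selplg, a ligand of selectins, from 5.49 to 5.75.

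The 3 chains of complement C1q gave 3 different patterns. C1q starts the classical complement cascade and tags synapses for removal, and each molecule is built from A, B and C chains in equal number. The genes lie side by side on chromosome 4 in the order C1qb, C1qc and C1qa, with 3616 bases between the first pair and 2851 between the second. Their summed level was 139 to 150 FPKM in B6 mice, 116 to 134 in C3H mice and 92.2 to 107 in WSB mice, without overlap.

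C1qc was the chain with the widest difference, at 25.4, 24.9 and 26.9 FPKM in B6, 18.4, 16.8 and 16.5 in C3H and 7.82, 8.04 and 7.26 in WSB. The strains did not overlap, and the B6 mean was 3.34 times that of WSB. The log2 fold change was -1.73 (SE 0.07, adjusted p = 1.79e-05) for WSB against B6, -0.58 (SE 0.08, adjusted p = 0.00576) for C3H against B6 and -1.15 (SE 0.08, adjusted p = 0.000351) for WSB against C3H. C1qb was lower in both strains than in B6, with 53.3, 56.3 and 57.5 FPKM in B6, 36.5, 34.0 and 37.1 in C3H and 36.2, 45.4 and 37.9 in WSB. Its log2 fold change was -0.49 (SE 0.09, adjusted p = 0.0275) in WSB and -0.63 (SE 0.07, adjusted p = 0.00273) in C3H, and C3H and WSB overlapped. C1qa had its highest mean in C3H, with 60.5, 59.9 and 65.7 FPKM in B6, 75.01, 65.3 and 80.0 in C3H and 48.2, 54.0 and 48.7 in WSB. WSB lay below both other strains without overlap and was called lower than C3H (log2 fold change -0.54, SE 0.09, adjusted p = 0.0197), whereas the difference of -0.30 (SE 0.07) from B6 was not called (adjusted p = 0.0624). All 3 chains were tested with limma.

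Ratios between chains within a mouse are free of the scaling of its library. C1qb over C1qa was 0.876 to 0.940 in B6 mice, 0.464 to 0.521 in C3H mice and 0.751 to 0.841 in WSB mice. C1qc over C1qb was 0.442 to 0.477 in B6 mice, 0.444 to 0.503 in C3H mice and 0.177 to 0.216 in WSB mice. C1qb thus stood apart from C1qa in C3H, and C1qc from C1qb in WSB, where the ratios of B6 and C3H overlapped. C1qc over C1qa was 0.410 to 0.420 in B6 mice, 0.206 to 0.258 in C3H mice and 0.149 to 0.162 in WSB mice, separate in all 3 strains.

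Itgam, the integrin chain CD11b of complement receptor 3, had 1.42, 1.17 and 1.25 FPKM in B6, 1.18, 1.10 and 1.12 in C3H and 1.36, 1.13 and 1.41 in WSB. The strains overlapped, and no comparison called it. Its count is uncertain because 68.7% of its exon bases are shared on the same strand with Gm49368.

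Among the Trem2, Fc receptor and Tyrobp signalling genes, all 5 lay below 0 between WSB and B6. In all 5 (100%) every WSB value lay below every B6 value, against 13.1% of all genes tested. Limma called 3 (60.0%) lower in WSB, against 5.90% of all genes called in either direction and 3.09% called lower. Trem2, the lipid-sensing receptor of microglia, had 4.27, 3.48 and 3.69 FPKM in B6, 4.78, 4.12 and 5.001 in C3H and 2.57, 2.05 and 2.55 in WSB. Tyrobp, the signalling adaptor of Trem2, had 17.2, 15.3 and 19.8 FPKM in B6, 18.04, 17.8 and 16.1 in C3H and 10.9, 11.3 and 9.36 in WSB. Receptor and adaptor were both lowest in the 3 WSB mice, and B6 and C3H overlapped. By limma, Trem2 differed by -0.66 (SE 0.14, adjusted p = 0.0345) between WSB and B6 and by -0.93 (SE 0.13, adjusted p = 0.00948) between WSB and C3H. Tyrobp differed by -0.72 in both (SE 0.12, adjusted p = 0.0128, and SE 0.10, adjusted p = 0.00678). Leaving out any 1 of the 6 mice ended the call of Trem2 between WSB and B6.

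Fcgr3, a low-affinity IgG receptor that signals through Fcer1g, followed the order of Fcrls. It had 9.07, 6.76 and 7.49 FPKM in B6, 3.74, 3.27 and 4.51 in C3H and 1.97, 2.73 and 2.33 in WSB, without overlap. The B6 mean was 3.31 times that of WSB and 2.02 times that of C3H, and limma called both differences, at -1.69 (SE 0.16, adjusted p = 0.00100) and -0.999 (SE 0.15, adjusted p = 0.0125). WSB against C3H, at -0.69 (SE 0.17), was not called (adjusted p = 0.0609). Its transcript shares 509 bases at 96.5% identity with that of the inhibitory receptor Fcgr2b, so that reads of the pair could be divided between them. Fcgr2b itself was weak, with means of 0.677, 1.09 and 0.850 FPKM in B6, C3H and WSB.

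Fcer1g, the adaptor chain of Fcgr3, averaged 9.61 ± 1.69 FPKM in B6, 5.89 ± 1.31 in C3H and 6.63 ± 0.53 in WSB, and was lower without overlap in both strains but not called (limma, adjusted p = 0.0852 in C3H and 0.0736 in WSB). Inpp5d, the phosphatase SHIP1 that restrains such receptors, averaged 2.12 ± 0.19 FPKM in B6, 1.73 ± 0.31 in C3H and 1.51 ± 0.25 in WSB, and was not called.

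**Figure D4:**
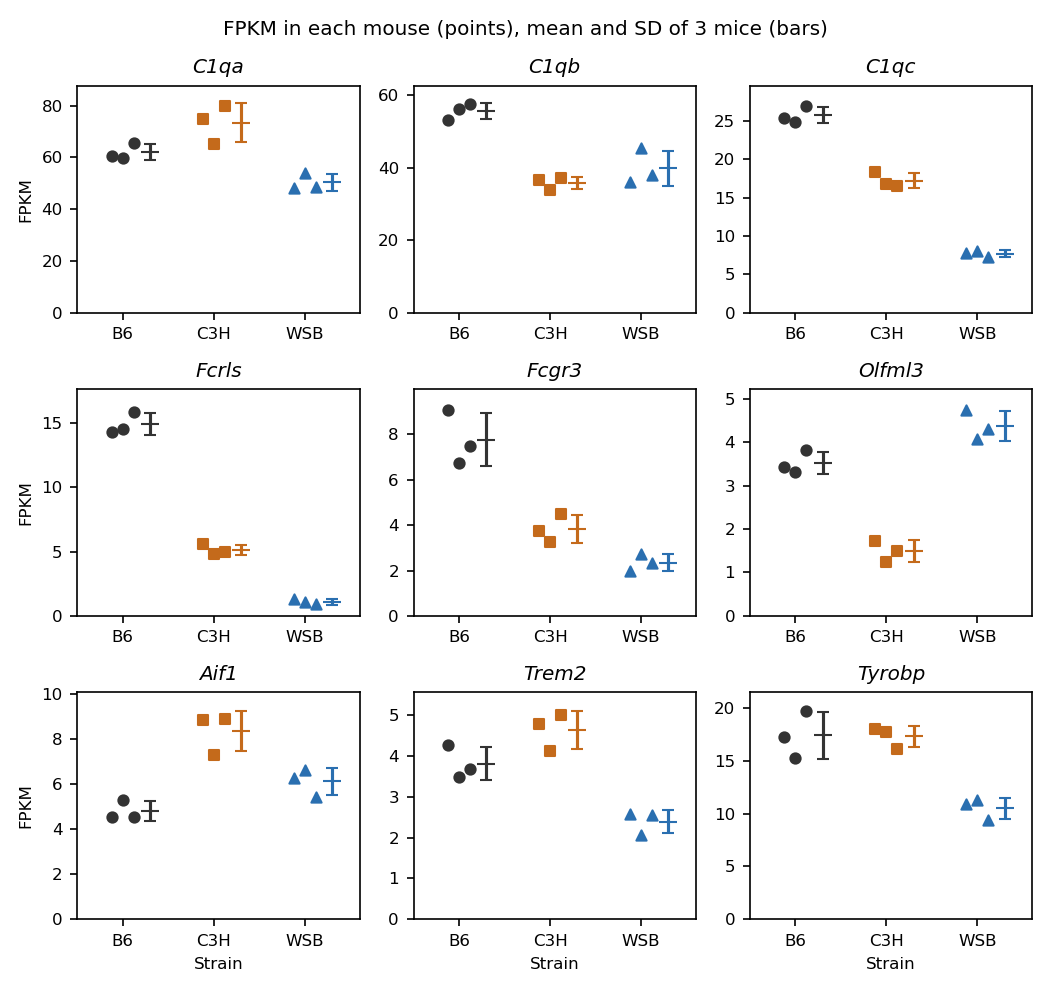
FPKM (vertical axes, from 0) of 9 microglia genes in each mouse of the 3 strains (horizontal axes), with points for mice and bars for the mean and SD of 3 mice. Fcrls, C1qc and Fcgr3 step down from B6 to C3H to WSB, C1qb is lower in C3H and WSB, Olfml3 is low in C3H, Aif1 is high in C3H, and Trem2 and Tyrobp are low in WSB.

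The lysosomal and innate sensing genes were split. Ctss, the protease cathepsin S, had 50.5, 40.6 and 41.5 FPKM in B6, 36.5, 37.2 and 38.2 in C3H and 32.2, 31.8 and 30.7 in WSB. Cd68, a lysosomal membrane protein of macrophages, had 7.82, 7.33 and 6.68 FPKM in B6, 7.52, 5.83 and 7.34 in C3H and 5.17, 4.87 and 4.27 in WSB. Laptm5, a lysosomal membrane protein of hematopoietic cells, had 10.8, 10.1 and 9.54 FPKM in B6, 12.1, 8.79 and 11.6 in C3H and 6.91, 7.03 and 6.10 in WSB. For each of these genes all WSB mice lay below all B6 and C3H mice. Limma called all of them lower in WSB than in B6, Ctss by -0.48 (SE 0.09, adjusted p = 0.0288), Cd68 by -0.60 (SE 0.11, adjusted p = 0.0190) and Laptm5 by -0.60 (SE 0.09, adjusted p = 0.0103). Laptm5 was also called lower in WSB than in C3H, by -0.68 (SE 0.14, adjusted p = 0.0327).

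Lgmn, the lysosomal protease legumain, did not follow them. Its means were 49.5 ± 0.71 FPKM in B6, 51.6 ± 2.67 in C3H and 51.9 ± 3.77 in WSB, and its log2 fold change between WSB and B6 was 0.07 (SE 0.07). Cd14, the coreceptor for lipopolysaccharide, averaged 1.88 ± 0.68 FPKM in B6, 1.26 ± 0.08 in C3H and 1.99 ± 0.53 in WSB and was not called. Ly86, the partner of the receptor Cd180, averaged 2.25 ± 0.29, 1.84 ± 0.14 and 1.45 ± 0.17 FPKM in B6, C3H and WSB, and its WSB values lay below those of B6 without a call (log2 fold change -0.60, SE 0.15, adjusted p = 0.0736 by limma).

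Aif1 and Olfml3 ran against the list between WSB and B6. Aif1 also did so between C3H and B6, where Olfml3 was lower in C3H. Olfml3 also did so between WSB and C3H, where Aif1 was lower in WSB. Aif1 encodes Iba1, the actin-binding protein used to stain microglia, and had 4.56, 5.30 and 4.53 FPKM in B6, 8.84, 7.31 and 8.91 in C3H and 6.28, 6.63 and 5.43 in WSB. It was highest in C3H and lowest in B6 without overlap, and was called between C3H and B6 (log2 fold change 0.79, SE 0.12, adjusted p = 0.00995 by limma) but not between WSB and B6 (0.34, SE 0.11, adjusted p = 0.139). Olfml3 encodes a secreted olfactomedin-like protein, and had 3.44, 3.33 and 3.82 FPKM in B6, 1.74, 1.23 and 1.51 in C3H and 4.75, 4.08 and 4.31 in WSB. C3H was lowest and WSB highest without overlap. By limma the log2 fold change of Olfml3 was -1.20 (SE 0.15, adjusted p = 0.00497) for C3H against B6 and 1.503 (SE 0.15, adjusted p = 0.00189) for WSB against C3H, while 0.30 (SE 0.11) for WSB against B6 was not called (adjusted p = 0.161).

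Ptprc, the leukocyte antigen CD45, was the weakest gene of the list, with means of 0.192 ± 0.018 FPKM in B6, 0.119 ± 0.041 in C3H and 0.0983 ± 0.0197 in WSB on 24 to 79 reads per mouse, over a gene length of 18313 bases. WSB values were lower than those of B6 without overlap, but its SE of 0.35 was the widest of the 33 genes in that comparison and it was not called. Cd53, a leukocyte tetraspanin, averaged 4.53, 4.32 and 4.08 FPKM in B6, C3H and WSB and was not called.

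None of the 3 transcription factors was called by limma, and at an unadjusted p under 0.05 the counts were 2 (WSB against B6), 0 (C3H against B6) and 1 (WSB against C3H). Of all genes tested, 20.4%, 24.1% and 23.8% passed that threshold in these comparisons. Spi1 averaged 1.65 ± 0.22 FPKM in B6, 1.72 ± 0.15 in C3H and 1.20 ± 0.12 in WSB, and its log2 fold change between WSB and B6 was -0.42 (SE 0.16), the same as the median of the list. Irf8 averaged 1.11 ± 0.04 FPKM in B6, 0.895 ± 0.129 in C3H and 0.701 ± 0.178 in WSB, a difference of -0.62 (SE 0.21) between WSB and B6. For both genes WSB lay below B6 without overlap. Sall1 averaged 3.82 ± 0.68, 3.41 ± 0.10 and 3.33 ± 0.18 FPKM, with overlapping strains.

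The ligands and partners of these receptors did not share the shift between WSB and B6. Of 32 genes of this list, 30 were tested between WSB and B6, with a median of -0.04 and 17 below 0. Limma called 2 (6.67%), close to the 5.90% of all genes tested. C3, the central complement protein, was called higher in WSB, with 0.0760, 0.0481 and 0.137 FPKM in B6, 0.178, 0.0702 and 0.321 in C3H and 0.444, 1.16 and 0.766 in WSB (log2 fold change 2.19, SE 0.40, adjusted p = 0.0206 by limma). The B6 values of C3 lie near the 0.1 FPKM used as filter and as added constant. It passed the filter in this comparison through its WSB values, so the call and its size are uncertain. C4b, which acts downstream of C1q, was called lower, with 3.41, 4.03 and 3.82 FPKM in B6, 4.31, 4.33 and 5.39 in C3H and 1.51, 1.93 and 1.61 in WSB (log2 fold change -1.12, SE 0.13, adjusted p = 0.00368 by limma). In both genes all WSB mice lay outside the range of the other strains. Between C3H and B6 limma called none of 30 (9 at an unadjusted p under 0.05, 7 of them higher in C3H, against 24.1% of all genes tested). Between WSB and C3H the median was -0.21, with 21 of 29 tested genes below 0. All WSB values lay below all C3H values in 9 genes (31.0%, against 14.4% of all genes) and above them in 4. Only C4b was called, as lower in WSB (3.45%, against 5.74% of all genes tested).

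A list of 28 genes that rise in activated microglia gave a median of -0.01 between WSB and B6 (25 tested, 13 below 0) and 0.22 between C3H and B6 (24 tested, 8 below 0). Spp1, H2-D1 and B2m were called lower in both comparisons, which share the B6 mice. These are 12.0% of the genes tested in WSB, against 5.90% of all genes, and 12.5% in C3H, against 4.64%. Between WSB and C3H the median was -0.15, with 20 of 24 tested genes below 0. Only Ccl6 was called there, as higher in WSB (4.17%, against 5.74% of all genes tested). Spp1, or osteopontin, had 7.56, 8.65 and 7.09 FPKM in B6, 1.63, 1.38 and 2.06 in C3H and 1.02, 2.77 and 3.42 in WSB. B2m, the light chain of MHC class I, had 85.9, 77.6 and 88.0 FPKM in B6, 59.2, 58.1 and 56.2 in C3H and 60.7, 49.4 and 48.2 in WSB. H2-D1 belongs to a multigene family whose members can share reads, and its difference is uncertain for that reason. Many of these genes are also expressed by other cells of the cortex.

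Some calls depended on single mice. Between WSB and B6 the number of microglia genes called fell from 11 to between 4 and 7 when 1 mouse was left out, and was lowest without B6 replicate 2. Over all genes it fell from 1224 to between 651 and 825. Fcrls, C1qc, Fcgr3 and Tyrobp were called in all 6 such fits. Laptm5 was called in 5, with an adjusted p of 0.0505 without B6 replicate 2, Csf1r in 3 (adjusted p 0.0435 to 0.0658), Cd68 in 2 (0.0370 to 0.0817), C1qb in 1 (0.0111 to 0.106) and Ctss in 1 (0.0301 to 0.0914). Trem2 (0.0684 to 0.101) and Siglech (0.0585 to 0.0886) were called in none, while their log2 fold changes stayed between -0.72 and -0.55 and between -0.67 and -0.51. Between C3H and B6 the count of microglia genes was 4 without C3H replicate 1, where Aif1 (adjusted p 0.0564) and Fcgr3 (0.0624) lost their calls, and 8 without C3H replicate 2. Over all genes, 507 and 2301 were called in these fits, compared with 956 with all mice. Between WSB and C3H the count of microglia genes was 4 without C3H replicate 1 and 13 without C3H replicate 2, where 475 and 2002 of all genes were called, compared with 1182. Fcrls, C1qc, Tyrobp and Olfml3 were called in all 6 fits. All of these are limma fits with Benjamini-Hochberg adjustment. The median of the list stayed between -0.46 and -0.35 for WSB against B6, between -0.22 and -0.05 for C3H against B6 and between -0.37 and -0.25 for WSB against C3H. With the trend on GC content removed, these medians were -0.46, -0.15 and -0.34, and 13, 7 and 11 microglia genes were called. Calls over all genes rose as well, to 1457 of 20723, 1171 of 20579 and 1424 of 20585 from 1224, 956 and 1182.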

How the data were processed

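RNA of brain cortex from 9 male mice, 3 per strain, was sequenced. Per the labels and the study's methods, adapters were trimmed with Cutadapt, reads were aligned with STAR (submitters' processing notes), counted on genes with HTSeq and analysed with DESeq2. Versions, genome build and strand setting are not given in the sources used here. The authors deposited FPKM per gene and mouse for 54532 genes. Multiplied by gene length, 100% of the values were whole reads within 0.01. The denominator of each library was its median-ratio size factor times a constant, and reads on genes ranged from 16317439 to 21562429 per mouse. The alignment reference and the strains' own sequences were not used here, so any effect of strain variants on read counts was not tested.

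Pairs of strains were compared on log2(FPKM + 0.1) by two-sided limma tests (version 3.58.1, R 4.3.3, eBayes with its trend option). Genes entered when their FPKM averaged 0.1 or more over the 6 mice of a pair, with Benjamini-Hochberg adjustment over all genes tested and a threshold of 0.05. The procedure was tested on simulated data. Coordinates in the table equal those of GENCODE M21 (GRCm38) for 53462 of 54532 genes. Transcripts close in sequence to the 33 genes were looked up by blastn 2.17.0. Values in every mouse are printed for 8 defining genes and for each gene called in any comparison, and for the others strain means or ranges. The mice are separate animals, and a p-value sets the strain difference against the spread between mice of a strain. That spread is drawn by eBayes toward a trend over all genes. The genes and lists were chosen with earlier results of these data known. Same-numbered mice did not deviate together (correlations from -0.16 to 0.04). Alternatives were pseudocounts of 1 and 0.01, no filter and a filter of 1 FPKM, other scalings, one fit of all 9 mice, no eBayes trend, voom weights on recovered reads, a replicate block, GC and length trends removed, protein-coding genes only, and leaving out each mouse.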

Additional observations from a re-analysis of the deposited data

How the results depend on the processing

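Beside the fits that left out 1 mouse, the count of microglia genes called between WSB and B6 fell from 11 to 4 with eBayes without a trend and to 7 with the replicate number as a block. Between WSB and C3H it fell from 8 to 5 under each of these fits, and the median moved from -0.31 to -0.23 with a pseudocount of 1. Between C3H and B6 the count was 6 under both. The replicate numbers do not pair the mice. Leaving out 1 mouse gave counts of 4 to 7 between WSB and B6, 4 to 8 between C3H and B6 and 4 to 13 between WSB and C3H, with medians of -0.46 to -0.35, -0.22 to -0.05 and -0.37 to -0.25. Over all genes the counts called ranged from 651 to 1659 between WSB and B6, from 480 to 2301 between C3H and B6 and from 475 to 2002 between WSB and C3H. Fcrls and C1qc were called in every fit of the 3 comparisons that was run. Fcer1g was called lower in C3H and in WSB than in B6 once GC trends were removed.

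Signs turned for uncalled differences near 0. Between WSB and B6, Itgam ranged from -0.042 (without B6 replicate 2) to 0.11 when 1 mouse was left out. Between C3H and B6, Laptm5 gave -0.081 with GC trends removed, -0.060 with GC and length trends removed and -0.010 (without C3H replicate 1) to 0.22 when 1 mouse was left out, and C1qa gave -0.22 with GC and length trends removed. With 1 mouse left out, Cx3cr1 ranged from -0.076 to 0.11, P2ry12 from -0.035 (without B6 replicate 3) to 0.23, Tyrobp from -0.093 to 0.091 and Cd68 from -0.15 to 0.033 (without C3H replicate 2). Between WSB and C3H, P2ry12 gave -0.17 with GC trends removed, -0.10 with GC and length trends removed and -0.010 (without WSB replicate 1) to 0.26 when 1 mouse was left out. The cause was not tested. Weak genes such as Ptprc, with 24 to 79 reads per mouse, limit what can be seen at this depth.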
